A study of Mus musculus with 2 samples.

Results

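The subject is a set of 8 genes: Alpl, which encodes tissue-nonspecific alkaline phosphatase, and 7 ATP-binding cassette efflux pumps, Abcb1a, Abcb1b, Abcc1, Abcc3, Abcc4, Abcc5 and Abcg2. They were picked by symbol from a list with no threshold on a measured value, although earlier results of these data were known when the list was made, and all 8 were present among the 19059 features. Nuclear RNA was counted in 8 tumors of dFLEx CDS mice, an immunocompetent model of CIC::DUX4 sarcoma in which a dual recombinase switch turns on the fusion oncogene. In every tumor, pCAG-Cre and pCAG-FLPE plasmids had been electroporated into the hind limb muscle, so the broadly active CAG promoter, and not a lineage-restricted one, drove the recombinases. The untreated group was 4 tumors, labelled dFLEx CDS +/- and given no treatment, and the Minnelide group was 4 tumors of dFLEx CDS mice given 0.42 mg/kg Minnelide daily for 21 days, whose label states no genotype. Per the study's methods, dFLEx CDS mice were between 6 and 12 weeks of age at electroporation, and the untreated group was not labelled as vehicle-treated. The deposited matrices of Minnelide tumors 1 and 2 carry the word responder and those of tumors 3 and 4 the word nonresponder. The sample labels do not give the response, so these tumors are named side by side, with no mean and no test by response.

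Minnelide is a phosphate prodrug of triptolide. Phosphatases cleave its phosphate and release triptolide, which binds the XPB subunit of the general transcription factor TFIIH and blocks transcription by RNA polymerase II. Alkaline phosphatase sits on the outer cell surface and hydrolyses phosphate esters and pyrophosphate, and it is best known from bone, where its removal of pyrophosphate permits mineralization. The pumps use ATP to move compounds out of cells. Abcb1a and Abcb1b encode the mouse P-glycoproteins, which share the role of a single human gene and export hydrophobic drugs. The ABCC members are multidrug resistance-associated proteins that export organic anions and conjugates, and Abcg2, the breast cancer resistance protein, works as a dimer on a wide range of drugs and on urate. Endothelial cells of barrier tissues are the classic site of Abcb1a and Abcg2.

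In the GRCm39 annotation, Alpl lies on chromosome 4 (137469039 to 137524102, minus strand) and Abcg2 on chromosome 6 (58561505 to 58672661, plus strand). Abcb1a (8710022 to 8798575) and Abcb1b (8847994 to 8916389) lie in tandem on the plus strand of chromosome 5, 49418 bases apart. Abcc1 (14179311 to 14293601, plus strand) and Abcc5 (20150053 to 20245192, minus strand) lie on chromosome 16, Abcc3 on chromosome 11 (94233874 to 94283823, minus strand) and Abcc4 on chromosome 14 (118720103 to 118943924, minus strand). No other counted gene overlapped any of them.

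Abcb1a and Abcb1b are near-identical copies, with 88.1% of coding bases the same, and their longest shared run of transcript sequence was 338 bases. The last 120 coding bases that align without a gap are shown because reads from them can be told apart at few positions. They lie in a single coding exon of each gene and are 98.3% identical, and the capitals mark the 2 bases that differ:
Abcb1a, chr5:8797412-8797531, plus strand: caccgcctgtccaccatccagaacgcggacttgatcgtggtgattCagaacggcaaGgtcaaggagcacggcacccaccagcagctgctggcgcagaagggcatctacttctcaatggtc
Abcb1b, chr5:8915807-8915926, plus strand: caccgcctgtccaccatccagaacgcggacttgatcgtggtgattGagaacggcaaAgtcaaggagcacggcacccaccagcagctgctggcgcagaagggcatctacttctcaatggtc
The last 500 bases of the 2 transcripts, which lie nearer to where a 3′ library primes, shared at most 9 bases in a row. How many reads the counting divided between the pair, or left uncounted, was not tested, and the levels of both are uncertain to that extent. The next most alike pairs were Abcb1a and Abcb4 (75.99% of coding bases), Abcb1b and Abcb4 (74.6%) and Abcg2 and Abcg3 (68.8%).

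The files held 72338 nuclei, of which 59907 were retained (4470 to 10368 per tumor), and between 18487409 and 73211599 UMIs (counted RNA molecules) per tumor. Untreated tumor 4 had the lowest depth, with a median of 883 UMIs per nucleus where the other 7 tumors had 2329 to 4031. Clusters were named from marker lists that left the 8 genes out. All markers of the tumor, fibroblast, endothelial, macrophage, mural and myocyte lists that define a class had UMIs in that class in every tumor that formed it. Untreated tumor 4 formed no macrophage-like class and Minnelide tumor 4 no mural-like class. Untreated tumor 1 stood apart: 39.6% of its nuclei had no name and 13.9% were tumor-like, against 0 to 23.1% and 23.7 to 79.2% in the others. Its tumor-like nuclei held 4111 CPM of the summed endothelial markers (CPM is a gene's UMIs scaled to the same total in every sum), against 477 to 858 elsewhere. The tumor marker list (Etv1, Etv4, Etv5 and other CIC::DUX4 targets, 9 of 9 markers detected) reached a median of 41.5% of its tumor-like level in fibroblast-like nuclei, 50.4% in endothelial-like and 72.8% in macrophage-like nuclei. Whether this was free RNA, mixed clusters or the classes' own expression was not tested. Same-numbered tumors of the 2 groups shared 49 to 132 cell barcodes, and no batch is labelled, so any difference between the libraries of the 2 groups cannot be told apart from treatment.

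As the clusters were named here, Alpl was highest in fibroblast-like nuclei and, where they formed, in osteoblast-like clusters. Over all retained nuclei its level was 20.2, 84.9, 97.3 and 29.8 CPM in untreated tumors 1 to 4 and 6.78, 13.4, 13.6 and 26.4 CPM in Minnelide tumors 1 to 4. The 2 highest values were untreated, and the groups overlapped because Minnelide tumor 4 lay above untreated tumor 1. In sums over all nuclei, fewer cells of a type and less RNA per cell cannot be told apart. In fibroblast-like nuclei Alpl was at 91.1, 286, 169 and 129 CPM in the untreated tumors and 29.2, 32.2, 70.5 and 68.5 CPM in the Minnelide tumors. Here every untreated tumor lay above every Minnelide tumor. The class summed 1 to 3 clusters per tumor, and single clusters overlapped between the groups. They held 18.3 to 392 CPM untreated and 10.7 to 107 CPM with Minnelide. The cluster at 392 CPM was in untreated tumor 2, the tumor with the highest fibroblast-like value. Whether its nuclei were fibroblasts or osteoblasts was not tested, so that value depends on the name given to this cluster. Whether the mix of clusters differed between the groups was not tested. In tumor-like nuclei Alpl was at 14.5, 36.3, 26.3 and 17.3 CPM untreated and 4.50, 9.67, 7.05 and 20.1 CPM with Minnelide, and these groups overlapped.

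Fibroblast-like nuclei exceeded the tumor-like nuclei of the same tumor in Alpl by 2.49 ± 0.19 on the log2(CPM + 1) scale (SE, 8 tumors, 5.64-fold). The difference was positive in 8 of 8 tumors, with adjusted p = 0.0203 over all genes in an exact two-sided sign-flip permutation test, and was larger than that of 97.4% of genes tested. No other class differed from tumor-like nuclei in Alpl by this test. In the order of mean levels, fibroblast-like nuclei were followed by myocyte-, macrophage-, mural-, tumor- and endothelial-like nuclei. Only the first step was beyond the spread between tumors. Clusters with osteoblast markers, named in untreated tumors 2 and 3, held Alpl at 804 CPM (251 UMIs, 69 nuclei) and 620 CPM (990 UMIs, 255 nuclei). These were 1.41% and 3.90% of the nuclei of those tumors and 14.1% and 39.95% of their Alpl UMIs. Fibroblast-like nuclei held 17.6 to 55.6% of Alpl UMIs across the 8 tumors.

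Abcb1a was highest in endothelial-like nuclei. Its level over all retained nuclei was 11.7, 7.06, 10.9 and 5.81 CPM untreated and 4.43, 13.2, 4.54 and 4.48 CPM with Minnelide. In endothelial-like nuclei it lay at 129, 52.1, 78.2 and 50.6 CPM untreated and 40.6, 85.3, 40.2 and 25.1 CPM with Minnelide. The level was highest in endothelial-like clusters in 8 of 8 tumors, and the 2 treatment groups overlapped. Endothelial-like nuclei held 28.5 to 57.6% of a tumor's Abcb1a UMIs while they were 3.57 to 8.81% of its nuclei. They exceeded tumor-like nuclei by 3.74 ± 0.21 on the log2 scale (SE, 13.3-fold, adjusted p = 0.0229 over all genes, exact permutation test), more than 99.8% of genes. The same tumors' tumor-like nuclei held 2.17 to 6.35 CPM untreated, and 1.95, 11.8, 1.64 and 2.08 CPM with Minnelide, where tumor 2 stood above the others. Fibroblast-like nuclei were second in order, at 2.59 to 16.9 CPM, and also exceeded tumor-like nuclei in 8 of 8 tumors (log2 difference 0.96 ± 0.20, adjusted p = 0.0203, exact permutation test).

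Abcb1b, the tandem copy, was spread over more classes. Summed over all retained nuclei, it lay at 45.0, 20.1, 19.2 and 14.8 CPM untreated and 9.04, 24.1, 6.64 and 8.73 CPM with Minnelide. Untreated tumor 1 was the highest, and Minnelide tumor 2 lay among the untreated values. The level in fibroblast-like nuclei was 37.5, 63.6, 36.0 and 33.2 CPM untreated and 43.5, 33.5, 24.6 and 32.6 CPM with Minnelide. In tumor-like nuclei it was 37.0, 6.36, 5.39 and 9.80 CPM untreated and 3.36, 14.1, 2.78 and 1.04 CPM with Minnelide. The tumor-like level was below the fibroblast-like level in 8 of 8 tumors, although by little in untreated tumor 1. The log2 difference from tumor-like nuclei was 2.34 ± 0.46 in fibroblast-like (adjusted p = 0.0203), 1.74 ± 0.23 in myocyte-like (adjusted p = 0.0222) and 1.57 ± 0.28 in endothelial-like nuclei (adjusted p = 0.0229), by the exact permutation test over all genes. Macrophage-like nuclei were higher in 7 of 7 tumors, by 2.48 ± 0.40. No neighbouring classes in the order of Abcb1b levels differed beyond their spread.

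Abcc1, which exports glutathione conjugates and leukotriene C4, was detected in every class. In the sums of all retained nuclei it lay at 74.4, 69.0, 83.2 and 68.3 CPM untreated and 40.02, 109, 44.9 and 57.3 CPM with Minnelide, where tumor 2 was the highest of all 8. In tumor-like nuclei the untreated values were 43.1, 41.1, 42.6 and 35.7 CPM, and the Minnelide values 24.5, 81.2, 31.7 and 45.2 CPM surrounded them. Its fibroblast-like values were 148, 132, 138 and 141 CPM untreated and 103, 124, 126 and 107 CPM with Minnelide, so the groups did not overlap there. Fibroblast-like (log2 difference 1.61 ± 0.17, 3.04-fold) and myocyte-like nuclei (1.32 ± 0.16, 2.49-fold) exceeded tumor-like nuclei in 8 of 8 tumors. The endothelial-like excess was small, 0.38 ± 0.12 in 7 of 8 tumors, with adjusted p = 0.04998 in the exact permutation test. Osteoclast-like clusters, where they formed, held 255, 238 and 252 CPM (untreated tumors 2 to 4) and 185 and 132 CPM (Minnelide tumors 2 and 4).

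Abcc3, a basolateral exporter of glucuronides and bile salts, led in macrophage-like nuclei. There it lay at 83.6, 57.5 and 37.3 CPM in untreated tumors 1 to 3 and 20.4, 12.4, 20.2 and 10.6 CPM with Minnelide. All untreated values were above all Minnelide values, on 28 to 166 UMIs per untreated tumor and 11 to 33 per Minnelide tumor. Abcc3 over all retained nuclei lay at 45.3, 15.8, 6.09 and 8.19 CPM untreated and 4.30, 3.95, 5.25 and 4.31 CPM with Minnelide. These groups did not overlap either, but untreated tumor 1 was far above the rest. In tumor-like nuclei the values were 46.6, 15.5, 5.39 and 9.42 CPM untreated and 4.10, 3.80, 4.23 and 3.65 CPM with Minnelide, again without overlap. Atp6v0d2 and St18, which led the osteoclast-like clusters, were also among the leading genes of the macrophage-like clusters of untreated tumor 1 and Minnelide tumor 3. Macrophage-like nuclei exceeded tumor-like nuclei in Abcc3 in 7 of 7 tumors (log2 difference 1.73 ± 0.22, 3.33-fold). Myocyte-like nuclei were lower in 8 of 8 tumors (log2 difference -0.93 ± 0.23, adjusted p = 0.0222 over all genes, exact permutation test).

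Abcc4, an exporter of cyclic nucleotides and prostaglandins, overlapped widely between the groups. Its values over all retained nuclei were 95.4, 63.7, 84.5 and 91.5 CPM untreated and 79.6, 94.2, 44.6 and 83.2 CPM with Minnelide. The tumor-like values were 111, 63.2, 73.8 and 89.3 CPM untreated and 80.6, 87.7, 37.7 and 85.5 CPM with Minnelide, with Minnelide tumor 3 the lowest of all. Endothelial-like nuclei held 236, 97.6, 165 and 166 CPM untreated and 99.8, 200, 104 and 120 CPM with Minnelide. They exceeded tumor-like nuclei in 8 of 8 tumors by 0.89 ± 0.14 on the log2 scale (1.86-fold, adjusted p = 0.0229, exact permutation test). The step from endothelial- to macrophage-like nuclei and the step from fibroblast- to mural-like nuclei, the lowest class, were beyond the spread between tumors.

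Abcc5, which exports cyclic nucleotides and nucleotide analogs, was lowest in tumor-like nuclei. Across all retained nuclei it lay at 104, 107, 127 and 135 CPM untreated and 66.5, 104, 53.5 and 60.3 CPM with Minnelide. Untreated tumors lay above Minnelide tumors, with untreated tumor 1 and Minnelide tumor 2 nearly touching. Tumor-like nuclei held 61.5, 52.7, 59.7 and 83.7 CPM untreated and 52.7, 59.9, 38.1 and 31.9 CPM with Minnelide, which overlapped. Fibroblast-like nuclei held 204, 180, 152 and 154 CPM untreated and 124, 111, 135 and 110 CPM with Minnelide, which did not. The excess over tumor-like nuclei was 1.73 ± 0.15 in myocyte-like (3.32-fold), 1.41 ± 0.14 in fibroblast-like (2.67-fold) and 0.78 ± 0.13 in endothelial-like nuclei (1.72-fold) on the log2 scale, each in 8 of 8 tumors. The highest Abcc5 levels were in osteoclast-like clusters, which held 765, 761 and 839 CPM in untreated tumors 2 to 4 and 286 and 440 CPM in Minnelide tumors 2 and 4. Those clusters were 1.70 to 3.58% of nuclei in the untreated tumors and held 15.5 to 21.9% of Abcc5 UMIs. In Minnelide tumors 2 and 4 they were 0.909 and 1.97% of nuclei with 3.43 and 16.8% of Abcc5 UMIs. With 3 tumors against 2, no test of these clusters was made.

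Abcg2 was set apart by a single tumor. Among all retained nuclei it lay at 397, 44.8, 60.8 and 65.3 CPM untreated and 98.8, 72.5, 42.1 and 65.2 CPM with Minnelide. The clusters of untreated tumor 1 held 99.4 to 627 CPM. Its myocyte-like clusters, at 99.4 to 285 CPM, overlapped those of Minnelide tumor 2, at 34.9 to 136 CPM. In untreated tumor 1 the unnamed nuclei held 71.3% of the 20154 Abcg2 UMIs. A single unnamed cluster of 1052 nuclei, with a median of 17592.5 UMIs per nucleus and Bank1 and Sult5a1 among its leading genes, held 58.5% of them at 485 CPM. The endothelial markers in the tumor-like nuclei of this tumor (4111 CPM, given above) were high together with its Abcg2, and their part in the Abcg2 level was not tested. Across the 8 tumors, endothelial-like nuclei held 627, 115, 190 and 103 CPM untreated and 144, 180, 95.8 and 143 CPM with Minnelide. They exceeded tumor-like nuclei in 8 of 8 tumors, by 1.21 ± 0.20 on the log2 scale (2.31-fold, adjusted p = 0.0229, exact permutation test). Mural-like nuclei lay next, at 284, 74.0, 87.2 and 146 CPM untreated and 164, 88.1 and 72.2 CPM with Minnelide, and were above tumor-like nuclei in 6 of 7 tumors (adjusted p = 0.140, exact permutation test).

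**Figure D1:**
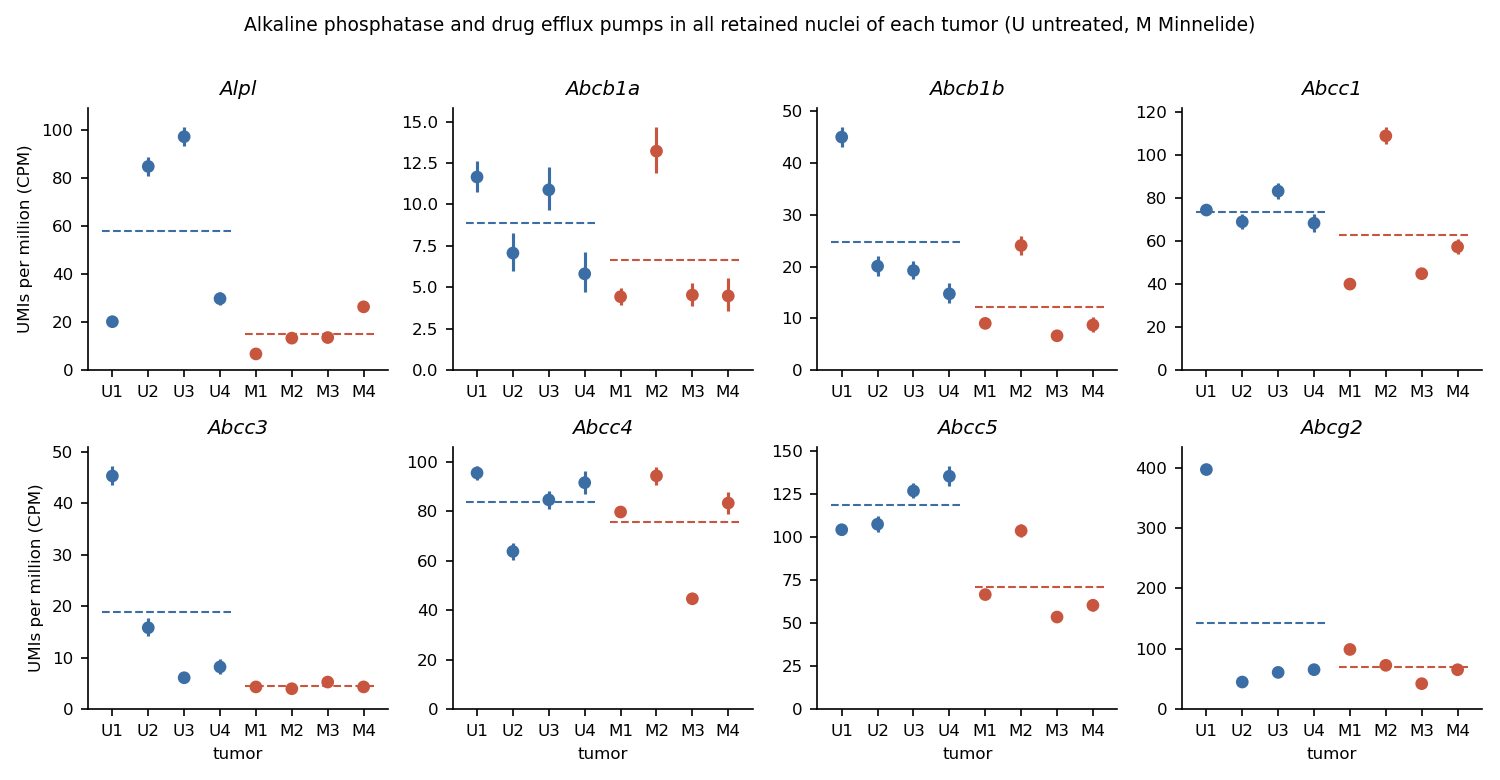
Level of each gene over all retained nuclei in CPM (linear axis from 0), 1 point per untreated (U1 to U4, blue) and Minnelide tumor (M1 to M4, red), with exact 95% Poisson intervals that cover counting error only and dashed group means. Untreated tumor 1 stands out for Abcg2 at 397 CPM and Abcc3 at 45.3 CPM, and Minnelide tumor 2 for Abcb1a at 13.2 CPM.

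The class differences were read over both treatment groups together. Of the 40 pairs of a class and a gene, 15 differed from the tumor-like nuclei of the same tumors at adjusted p under 0.05 over all genes. In fibroblast-like nuclei 5 genes were higher (Alpl, Abcb1a, Abcb1b, Abcc1 and Abcc5), where 26.6% of 11178 genes were called higher and 24.9% lower. In endothelial-like nuclei 6 were higher (Abcb1a, Abcb1b, Abcc1, Abcc4, Abcc5 and Abcg2), against 22.1% of 10948 genes higher and 24.8% lower. In myocyte-like nuclei 3 were higher (Abcb1b, Abcc1 and Abcc5) and Abcc3 was lower, against 20.1% and 28.1% of 11141 genes. With 7 tumors the smallest exact p is 0.0156, so no gene of any kind passed in macrophage-like nuclei (0% of 11234, lowest adjusted p = 0.0554) or mural-like nuclei (0% of 11027, lowest 0.0722). There, Abcb1b, Abcc1, Abcc3 and Abcc5 were higher in every tumor in macrophage-like nuclei (18.9% of genes were), and Abcc1 and Abcc5 in mural-like nuclei (11.5%), and no member was lower in every tumor in either class (9.25% and 10.2% of genes). Adjusted over the 40 pairs alone, as the test was first set, 21 pairs passed, and the 15 were all among them. RNA of the tumor markers in the other classes stands beside each of these differences. Its median share of the tumor-like level was 58.7% in mural-like and 32.0% in myocyte-like nuclei, with the other 3 classes given above. Neither its source nor its part in the differences was tested.

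**Figure D2:**
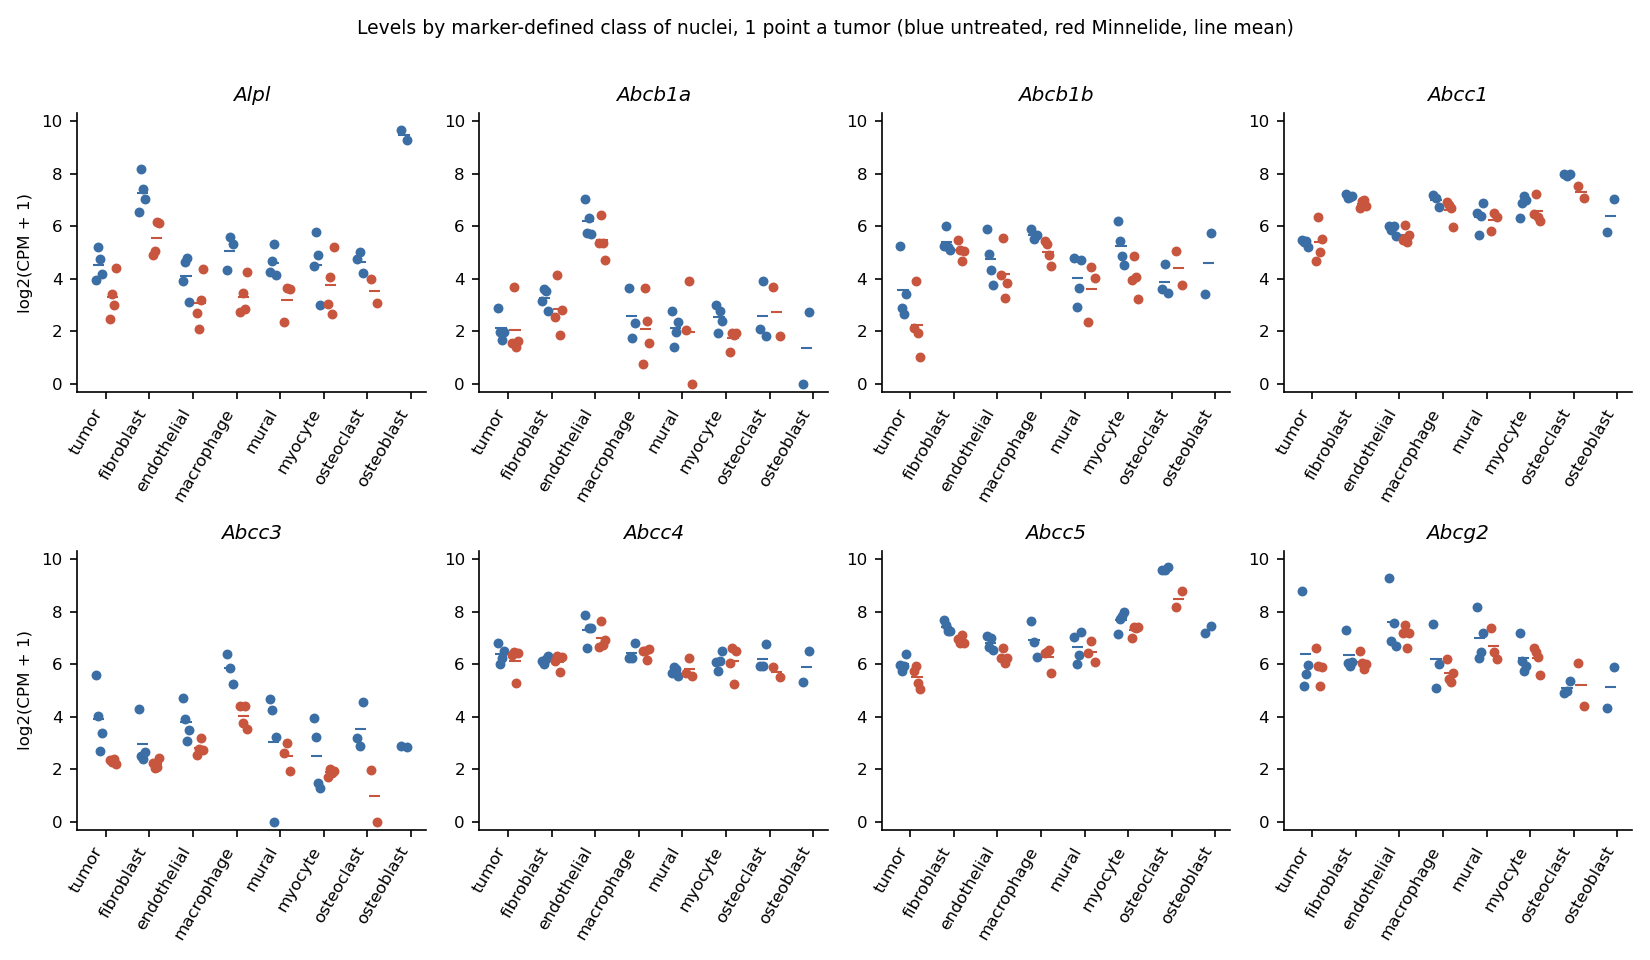
Level of each gene in 8 marker-defined classes on a log2(CPM + 1) axis, 1 point per tumor (blue untreated, red Minnelide) with a line at each group's mean. Abcb1a is highest in endothelial-like nuclei in all 8 tumors, fibroblast-like nuclei hold 5.64-fold more Alpl than tumor-like nuclei, and Abcc3 is highest in macrophage-like nuclei in the 7 tumors that formed them.

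**Figure D3:**
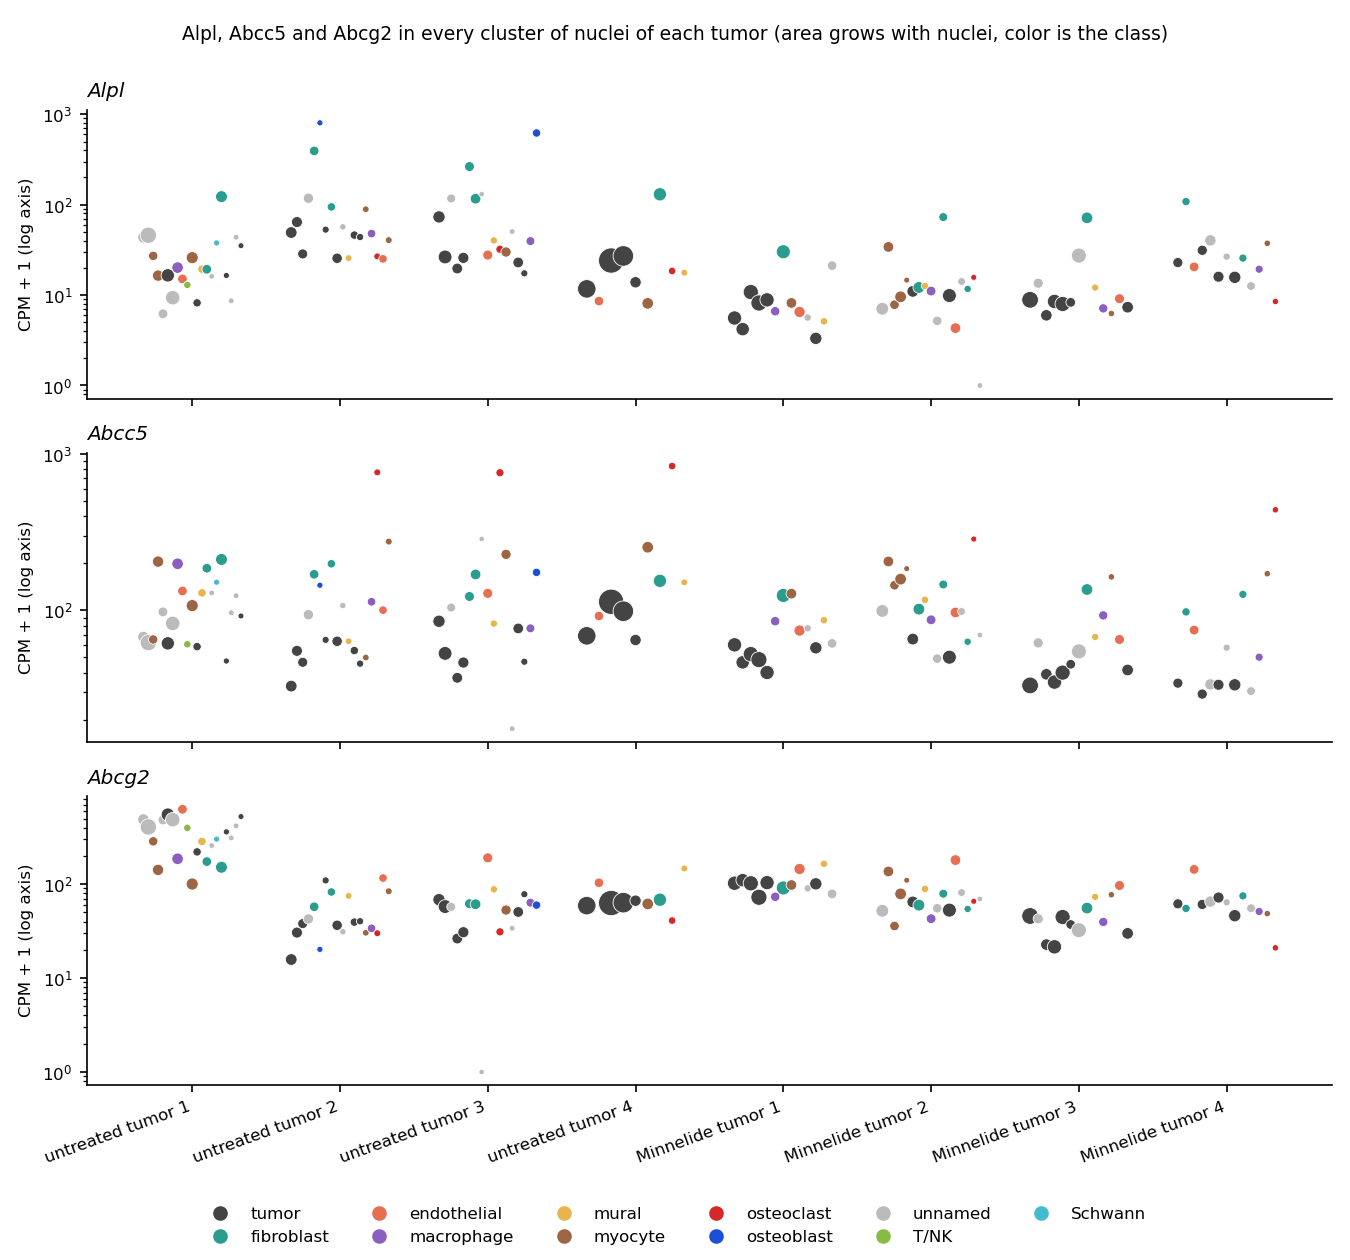
Level of Alpl, Abcc5 and Abcg2 in every cluster of each tumor as CPM + 1 on a log axis, with point area growing with the number of nuclei and color giving the class (grey unnamed). The highest Abcc5 clusters are osteoclast-like (286 to 839 CPM) in the 5 tumors that formed them, the highest Alpl clusters osteoblast-like (620 and 804 CPM) in untreated tumors 2 and 3, and every cluster of untreated tumor 1 holds Abcg2 at 99.4 CPM or more.

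Minnelide was compared with no treatment by edgeR's quasi-likelihood test on UMIs summed per tumor, with Benjamini-Hochberg adjustment over all genes. None of the 8 genes passed adjusted p under 0.05 in all retained, tumor-like, fibroblast-like, endothelial-like or macrophage-like nuclei. No other gene passed either (0% of 13811, 12645, 11359, 9887 and 10271 genes), while 1376, 1012, 1137, 1546 and 1435 genes had an unadjusted p under 0.05. DESeq2 called 181, 83, 88, 201 and 47 genes in the same sums, of which 1 was a member in fibroblast-like nuclei (Alpl) and 1 in macrophage-like nuclei (Abcc3). In simulated data of the same depths, the edgeR fit recovered 62.5 to 84.5% of genes changed 4-fold and 0 to 2.5% of genes changed 2-fold. In these simulations, with a set number of changed genes, a 2-fold difference was mostly not detected with 4 tumors per group (3 untreated for macrophage-like nuclei). Recovery with other numbers of changed genes was not tested.

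The estimates of the 8 genes were mostly below 0. Over all retained nuclei 8 of 8 had an estimated log2 fold change (Minnelide over untreated) below 0, with a median of -0.70, where the median of all genes was 0.0065. Those of Abcb1a, Abcc1 and Abcc4 were smaller than their SE, and that of Abcg2 changed sign without untreated tumor 1. In tumor-like nuclei 6 of 8 lay below 0 (median -0.64, all genes 0.032), in fibroblast-like 7 of 8 (median -0.29, all genes -0.023), in endothelial-like 8 of 8 (median -0.57, all genes -0.024) and in macrophage-like 6 of the 7 tested (median -0.57, all genes 0.012). Abcb1a fell under the filter on low counts in macrophage-like nuclei. Groups that did not overlap in CPM, with Minnelide below, were found for Abcc3 and Abcc5 over all retained nuclei (2 of 8, 6.93% of all genes) and for Abcc3 in tumor-like nuclei (1 of 8, 5.99%). They were found for Alpl, Abcc1 and Abcc5 in fibroblast-like nuclei (3 of 8, 4.23%), for no member in endothelial-like nuclei (5.56%) and for Alpl, Abcb1b and Abcc3 in macrophage-like nuclei (3 of 7, 11.3%). With Minnelide above, no member's groups were free of overlap in any of the 5 comparisons, against 0.652, 0.648, 2.64, 4.26 and 4.26% of all genes. The members of this set were chosen with earlier results of these data known, so these counts are a description.

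The Alpl estimate was -1.83 ± 0.62 over all retained nuclei (log2 fold change with SE, edgeR adjusted p = 0.463) and -1.05 ± 0.53 in tumor-like nuclei. In fibroblast-like nuclei, where Alpl is highest, it was -1.72 ± 0.43 with a 95% interval of -2.70 to -0.74, or 3.29-fold (169 ± 84.4 against 50.1 ± 22.5 CPM, SD, n = 4 each). The unadjusted edgeR p was 0.0034 and the adjusted p 0.434, against 0.0271 with DESeq2. The untreated mean holds untreated tumor 2 at 286 CPM, a value that depends on a cluster name as described above. The macrophage-like estimate was -1.66 ± 0.53 (edgeR adjusted p = 0.311). In fibroblast-like nuclei the tumor marker sum was 2778 to 6257 CPM untreated and 7236 to 11856 CPM with Minnelide, without overlap. The osteoblast marker sum there was 850 to 4313 CPM untreated and 1167 to 1916 CPM with Minnelide. The part of either in the Alpl difference was not tested.

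The Abcc3 estimate was -1.86 ± 0.56 over all retained nuclei (3.63-fold, edgeR adjusted p = 0.463) and -2.03 ± 0.57 in tumor-like nuclei (edgeR adjusted p = 0.616). Without untreated tumor 1 these moved to -1.06 and -1.26, and the fibroblast-like estimate moved from -1.14 to -0.37 and the endothelial-like one from -1.14 to -0.75. The macrophage-like estimate was -1.75 ± 0.31 (3.36-fold, 59.5 ± 23.3 CPM, n = 3, against 15.9 ± 5.13 CPM, n = 4, SD). Its unadjusted edgeR p was 0.000489, the adjusted p 0.301, and the DESeq2 adjusted p 0.00893. It was -1.48 without untreated tumor 1. Macrophage markers in the same nuclei summed to 2169 to 7255 CPM untreated and 931 to 2471 CPM with Minnelide (10 of 10 detected), the tumor markers to 4380 to 12037 and 12435 to 16794 CPM, and the osteoclast markers to 601 to 2902 and 84.5 to 1026 CPM. Their part in the Abcc3 difference was not tested.

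Abcc5 had an estimate of -0.60 ± 0.24 over all retained nuclei (118 ± 15.0 against 71.0 ± 22.4 CPM, SD, n = 4 each, edgeR adjusted p = 0.487). The estimates were -0.34 ± 0.23 in tumor-like, -0.46 ± 0.12 in fibroblast-like (edgeR adjusted p = 0.441) and -0.50 ± 0.18 in endothelial-like nuclei (edgeR adjusted p = 0.254). The tumor marker sum did not overlap between the groups in fibroblast-like nuclei (2778 to 6257 CPM untreated, 7236 to 11856 CPM with Minnelide) or in endothelial-like nuclei (3482 to 8608 and 9519 to 16140 CPM), and Abcc5 was lower in tumor-like nuclei than in either class. Osteoclast markers over all retained nuclei summed to 311 to 1640 CPM untreated and 113 to 440 CPM with Minnelide (7 of 7 detected), with overlap. The part of these markers in the Abcc5 estimates was not tested. Abcb1b stood at -0.84 ± 0.47 over all retained nuclei, with a 95% interval of -1.92 to 0.24, and at -1.21 ± 0.85 in tumor-like nuclei. Abcb1a stood at -0.25 ± 0.44 (-1.25 to 0.75) over all retained nuclei, and its tumor-like estimate of 0.49 became -0.71 without Minnelide tumor 2. Abcc1 stood at -0.08 ± 0.32 (-0.81 to 0.65), and became 0.09 without Minnelide tumor 1 and 0.05 without Minnelide tumor 3. Its tumor-like estimate of 0.34 became -0.09 without Minnelide tumor 2. Abcc4 was centred at 0.00 ± 0.24 (-0.56 to 0.55), an interval that holds differences of up to 0.55 in either direction. Abcg2 had -0.79 ± 0.66 over all retained nuclei and -0.95 ± 0.76 in tumor-like nuclei, which became 0.37 and 0.47 without untreated tumor 1.

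**Figure D4:**
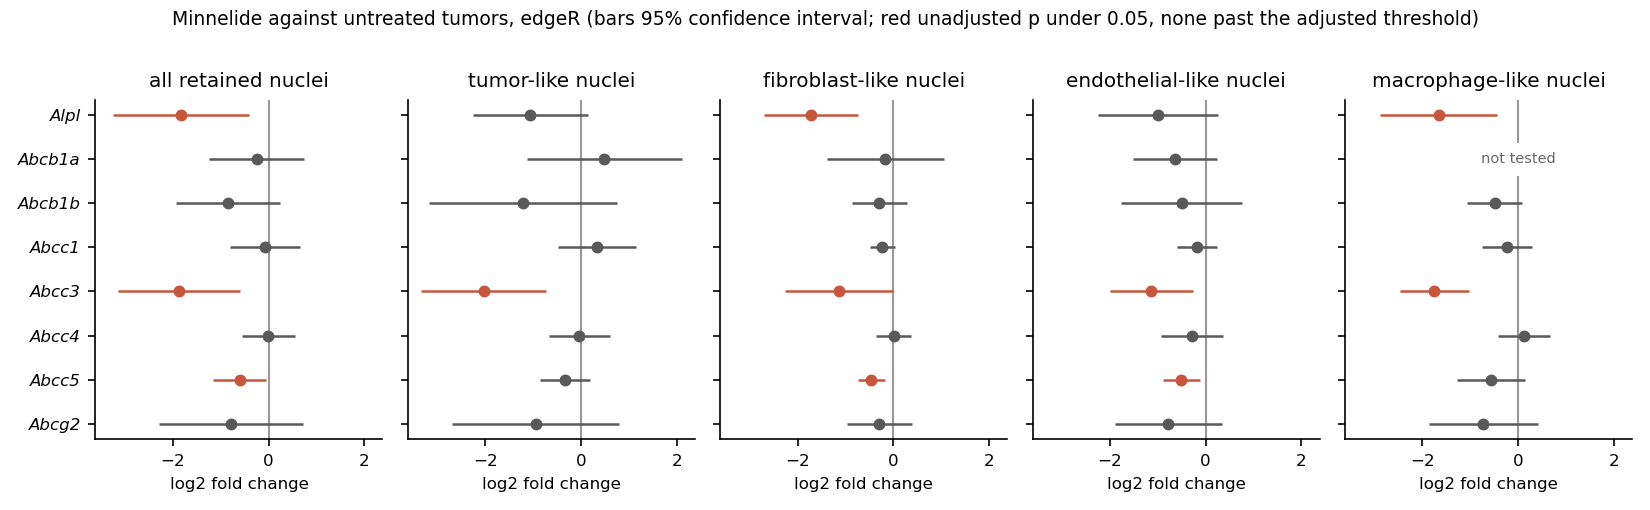
Estimated log2 fold change of each gene, Minnelide over untreated, as a point with its 95% interval from the edgeR fit in each of the 5 comparisons, with a line at 0 and red where the unadjusted p was under 0.05. Abcc3 lies at -2.03 in tumor-like nuclei and Abcc4 at 0.00 over all retained nuclei, and no gene passed adjustment over all genes.

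Among the Minnelide tumors, tumor 2 (responder) had the highest Abcb1a, Abcb1b, Abcc1, Abcc4 and Abcc5 over all retained nuclei and in tumor-like nuclei. Tumor 1, with the same word, lay next to the nonresponder tumors 3 and 4 in Abcb1a (4.43 CPM against 4.54 and 4.48) and in Abcb1b (9.04 CPM against 6.64 and 8.73). The 2 tumor-like clusters of tumor 2 differed, at 3.76 and 15.3 CPM in Abcb1a and 2.05 and 19.3 CPM in Abcb1b. Alpl, the phosphatase, stood at 6.78 and 13.4 CPM in the responder tumors and at 13.6 and 26.4 CPM in the nonresponder tumors. In fibroblast-like nuclei it stood at 29.2 and 32.2 CPM against 70.5 and 68.5 CPM, and in tumor-like nuclei at 4.50 and 9.67 CPM against 7.05 and 20.1 CPM. Single fibroblast-like clusters overlapped, at 10.7 to 71.9 CPM in tumor 2 (responder, 3 clusters) and 24.7 to 107 CPM in tumor 4 (nonresponder, 2 clusters). No test was made of these values.

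The other genes of the same families and pathways were also below the threshold. Over all retained nuclei, 0 of the 17 tested ABCB, ABCC and ABCG transporters outside the set passed in either direction (21 listed, 7 below 0, median log2 fold change 0.11). The smallest p of those below 0 was that of Tap2, a peptide transporter of antigen presentation, at -1.11 ± 0.31 (18.4 to 54.2 CPM untreated, 9.96 to 16.0 CPM with Minnelide), and of those above 0 that of Abcc12 at 0.81 ± 0.39. Of the ABCA and ABCD lipid transporters 0 of 15 passed (11 below 0, median -0.40), with Abca13 at -2.44 ± 0.93 and Abca4 at 0.34 ± 0.27. Of the other phosphomonoesterases 0 of 7 passed (2 below 0, median 0.02), with Acp5, the acid phosphatase of osteoclasts, at -1.54 ± 0.69 (41.0 to 338 CPM untreated, 14.1 to 77.9 CPM with Minnelide) and Acp1 at 0.25 ± 0.15. Mineralization partners of Alpl gave 0 of 9 (6 below 0, median -0.40), with the osteoblast transcription factor Sp7 at -2.03 ± 0.63 (2.05 to 11.5 CPM untreated, 0.870 to 2.58 CPM with Minnelide) and the phosphate transporter Slc20a1 at 0.21 ± 0.22. Regulators of drug transporters gave 0 of 9 (5 below 0, median -0.08), with the nuclear receptors Rxra at -0.47 ± 0.22 and Ppara at 0.60 ± 0.31. The edgeR adjusted p of these named genes ranged from 0.463 to 0.748.

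In tumor-like nuclei the same lists gave 0 of 16, 0 of 15, 0 of 6, 0 of 7 and 0 of 9 genes past the threshold, with medians of -0.04, -0.09, 0.07, 0.06 and -0.01. The genes with the smallest p on each side were Abcg3 (-2.06 ± 0.60) and Abcc12 (0.66 ± 0.34), Abca3 (-2.46 ± 0.95) and Abcd3 (0.16), Acp5 (-1.66 ± 0.77) and Acp2 (0.17), the bone sialoprotein gene Ibsp (-2.09 ± 0.89) and the osteoblast factor Runx2 (1.30 ± 0.72), and the stress-response factor Nfe2l2 (-0.52 ± 0.24) and Rxrb (0.31 ± 0.17). Their edgeR adjusted p ranged from 0.616 to 0.702.

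The genes whose levels most resembled each member were sought over 55 class-by-tumor sums and 11196 genes, as Pearson correlations of log2(CPM + 10). The sums of a tumor share its library and free RNA, and the same class recurs in each tumor, so the coefficients are a description. For Alpl they were Mmp13 (0.881), a collagenase of bone and cartilage, Shc2 (0.880) and Sfrp4 (0.867), a secreted Wnt antagonist. For Abcb1a they were Dipk2b (0.894), the vascular phosphatase Ptprb (0.890) and Vwf (0.886), which encodes von Willebrand factor. Abcc4 was nearest to Tal1 (0.755), Ptprb (0.731) and Rasgrf2 (0.729), and Abcg2 to Ltbp4 (0.862), Tmem47 (0.859) and Tspan15 (0.848). Abcc3 was nearest to Gpr160 (0.899), Unc93b1 (0.886), a chaperone of endosomal Toll-like receptors, and the complement gene C1qb (0.872). Abcc1 resembled Ank (0.843), Lrmda (0.831) and Mitf (0.831), and Abcc5 resembled Atp2c1 (0.898), Kidins220 (0.894) and Tmem65 (0.869). Abcb1b was nearest to Xdh (0.770), Rab21 (0.747) and Ahnak (0.737), and shared none of its 3 with Abcb1a.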

How the data were processed

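Per the labels and the file headers, the authors deposited whole-number UMI counts per gene and nucleus, not normalized, made with bcl2fastq 2.20 and Cell Ranger 7.0.1 on mm39 (the submitters' processing notes; the matrix headers name Cell Ranger 9.0.1). Per the study's methods, intronic reads were counted. The libraries were Chromium Single Cell 3′ with on-chip multiplexing. Each of the 8 matrices was taken as 1 tumor and 1 replicate. The labels do not name the animals, and the study's supplement describes the Minnelide mice chosen for sequencing by their own growth curves. The p-values measure the spread between these matrices.

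Compromised nuclei (posterior over 0.75), nuclei under 200 genes and predicted doublets were left out. Predicted doublets were the nuclei that scored highest for likeness to simulated doublets, at an assumed rate of 0.8% per 1000 nuclei. Each tumor was clustered with scanpy 1.11.5 on 1920 to 1941 variable genes without the 8 members (30 components, 40 neighbors, Leiden 1.0). A cluster of at least 50 nuclei was named from at least 3 raised markers of a fixed list (3-fold over the other clusters and 5% of nuclei, 1.5-fold for tumor markers), and stayed unnamed where its leading genes went against the name. This naming rule was revised after clusters and class sizes were seen, before any member value was seen, and mural-like replaced the planned pericyte-like class. The members and gene lists were chosen with earlier results of these data known.

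UMIs were summed per tumor and class (at least 20 nuclei) and scaled to CPM. Treatment was tested with edgeR 4.0.16 (R 4.3.3; TMM, filterByExpr, quasi-likelihood F test, Benjamini-Hochberg over all genes), and the SE is the size of the log2 fold change divided by the square root of F. DESeq2 1.42.0 was an alternative, and scripts were tested on simulated counts. Class and tumor-like nuclei of the same tumor were compared on log2(CPM + 1) by an exact two-sided sign-flip permutation test (written in Python 3.11.15). It was set to be adjusted over the 40 pairs, and adjustment over all genes was added after values were seen. Genes needed a mean of at least 5 CPM in either class, but the members were kept at any level. Other genes helped to build the clusters and the members did not. The text names all 8 members. Of each list it names the genes past the threshold or, failing that, that with the smallest p in each direction, and for each member the 3 genes of highest correlation (mean of at least 5 CPM). Gene positions and sequences are from the GENCODE annotation and genome of GRCm39. Alternatives were another normalization, no filter, DESeq2, all deposited nuclei, Leiden 0.5, stricter naming, tumor-like nuclei without endothelial UMIs, and leaving out tumors. CPM values carry counting error too, from 75 to 20154 UMIs per member and tumor over all retained nuclei.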

Additional observations from a re-analysis of the deposited data

Results flagged for a closer look

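Within a group of 4 tumors, a member was marked when its highest or lowest tumor lay far from the others for the range of the group (Dixon's test at 95%). Of 96 groups, 13 were marked. Chance marks about 1 in 20 groups taken singly. The groups share tumors, and the sums of all retained nuclei contain the classes, so the 13 cannot be set against that rate. Abcg2 in untreated tumor 1 was marked 5 times, at 397 CPM over all retained nuclei (others 44.8 to 65.3), 440 in tumor-like (35.0 to 62.1), 157 in fibroblast-like (60.5 to 67.4), 627 in endothelial-like (103 to 190) and 145 in myocyte-like nuclei (52.0 to 67.6). The same tumor was marked for Abcb1b in tumor-like nuclei at 37.0 CPM (5.39 to 9.80) and for Abcc3 in fibroblast-like nuclei at 18.5 CPM (4.26 to 5.37). Minnelide tumor 2 was marked for Abcb1a at 13.2 CPM over all retained nuclei (4.43 to 4.54) and 11.8 CPM in tumor-like nuclei (1.64 to 2.08), and for Abcb1b at 24.1 CPM over all retained nuclei (6.64 to 9.04). The remaining marks were Abcb1b in fibroblast-like nuclei of untreated tumor 2 at 63.6 CPM (33.2 to 37.5), Abcc4 in tumor-like nuclei of Minnelide tumor 3 at 37.7 CPM (80.6 to 87.7) and Abcb1a in myocyte-like nuclei of Minnelide tumor 1 at 1.31 CPM (2.63 to 2.84).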

How the results depend on the processing

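Treatment was compared without pairing, because the labels pair no untreated tumor with a Minnelide tumor. Only the class contrast was paired, within each tumor. In place of edgeR, DESeq2 called 181 genes over all retained nuclei, 83 in tumor-like, 88 in fibroblast-like, 201 in endothelial-like and 47 in macrophage-like nuclei, with 1 member each in the fibroblast-like (Alpl) and macrophage-like sums (Abcc3). Stricter naming left 2 untreated tumors and 1 Minnelide tumor with macrophage-like nuclei and called 223 genes, 1 of them a member (Alpl, -2.90, adjusted p = 0.000462). There the lone tumor is assumed to vary like the others. The 21 pairs of a class and a member, adjusted over the 40 pairs alone, became 13 with Leiden 0.5 and 14 to 18 with 1 tumor left out. They became 0 without untreated tumors 1 and 4, where the smallest exact p is 0.0312. The 15 pairs called over all genes, and the shares of all genes called, were not recounted in these settings. With 1 tumor left out edgeR called 0 to 1 genes over all retained nuclei and in endothelial-like nuclei (the 1 in each case without Minnelide tumor 2), and 0 in the other 3 comparisons. Scaling by total UMIs, added after seeing the data, moved the median of all genes to -0.148, -0.135, -0.080, -0.082 and -0.142 in the 5 comparisons.

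The estimates below changed sign, and the cause was not tested. Over all retained nuclei Abcc4 became 0.025 with DESeq2 and with its size factors, 0.0073 without the filter and 0.13 without untreated tumors 1 and 4 (added after seeing the data), and Abcg2 became 0.50 without those 2. In tumor-like nuclei Abcg2 became 0.67 and Abcc4 0.16 without those 2 tumors. Among tumor-like nuclei without endothelial UMIs Abcg2 became 0.41. Untreated tumor 1 kept 1 such nucleus, under the 20 needed, so that fit also left this tumor out. In fibroblast-like nuclei Abcc4 became -0.089 with Leiden 0.5, -0.019 with stricter naming and -0.046 on total UMIs, Abcb1a and Abcb1b became 0.034 and 0.033 with stricter naming, and Abcg2 became 0.15 without tumors 1 and 4. In macrophage-like nuclei Abcc1 became 0.062 with Leiden 0.5 and 0.0072 with stricter naming, Abcc4 became -0.036, -0.068, -0.016 and -0.025 (Leiden 0.5, stricter naming, total UMIs, without tumors 1 and 4), and Abcg2 became 0.60 with stricter naming and 0.17 without tumors 1 and 4. With 1 tumor left out, Abcc4 ranged from -0.13 to 0.19 over all retained nuclei, -0.15 to 0.17 in tumor-like, -0.079 to 0.12 in fibroblast-like and -0.025 to 0.39 in macrophage-like nuclei. Abcg2 ranged from -1.07 to 0.37, -1.26 to 0.47, -0.44 to 0.11, -1.05 to 0.027 and -1.14 to 0.17 in the 5 comparisons, and was above 0 only without untreated tumor 1. Abcc1 ranged from -0.50 to 0.092 over all retained and -0.093 to 0.54 in tumor-like nuclei, and Abcb1a from -0.71 to 0.79 in tumor-like and -0.97 to 0.12 in fibroblast-like nuclei.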
